A study of Hordeum vulgare with 12 samples.

Results

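The wild-type barley cultivars Sebastian and Bonus were compared in the base of the young shoot, from 6 of the 12 RNA-seq libraries of the series, chosen by their label as 3 Sebastian and 3 Bonus libraries. Barley is Hordeum vulgare, and both cultivars are two-rowed spring barleys. In the series each is the parent of a mutant: nal1 stands in Sebastian and blf13 in Bonus, and the series title describes blf13 as a gain-of-function allele of the barley counterpart of rice NARROW LEAF1. Every library came from a pool of 6 plants aged 7 days, of which the basal 1 cm of the shoot with its apex was frozen after leaf 1 had been taken off. Sebastian and Bonus plants carry no mutant allele and had no treatment by the labels, and the 3 nal1 and 3 blf13 libraries served here to look at the same 2 cultivar backgrounds in other plants. The mutant libraries also entered the fit that set which genes were tested and the spread between libraries.

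The shoot base holds the apical meristem and the growth zones of the leaves, where cells divide and elongate before a leaf emerges. Inbred cultivars of a crop differ in transcript levels through variants in the regulatory sequence of a gene itself, through variants in genes that act on others, and through the gain or loss of whole genes. In barley, genes are densest and recombination is most frequent towards both ends of each chromosome, while the large central parts recombine rarely. Transcript levels of whole tissue pieces reflect both how much RNA a cell type makes and how many cells of it are present, and these cannot be told apart.

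Reads counted in genes numbered 23296179, 29036911 and 62995658 in the Sebastian libraries and 20207646, 29173654 and 21974527 in the Bonus libraries. Unmapped reads made up 14.7%, 13.8% and 14.9% of all reads in Sebastian and 14.1%, 16% and 10.3% in Bonus, so that neither cultivar stood apart in the share of reads that found a place on the reference. The gene IDs are those of the cultivar Morex and carry no names: 0 of 81687 matched the reference table of barley genes, so genes are given by ID, level, chromosome and rank along the chromosome, and the tissue could not be checked against marker genes. Levels are counts scaled to library size (CPM, with TMM scaling), and a CPM value is not corrected for gene length. Of the 81687 IDs, 36971 had a count in at least 1 of the 6 libraries. By a filter run over all 12 libraries, 22437 had enough counts to be tested. The median SD between libraries of one cultivar, on the log2(CPM + 1) scale, was 0.080 in Sebastian and 0.11 in Bonus over the 18213 tested genes of at least 1 CPM, and the median absolute difference between the cultivar means of these genes was 0.12.

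The comparison of Sebastian with Bonus asks how many genes of the shoot base differ in transcript level between the cultivars, and how far. At an adjusted p under 0.05 in edgeR's quasi-likelihood test, fitted to all 12 libraries, 3939 of 22437 genes differed, which is 17.6% of those tested. In Sebastian 1893 genes (8.44%) were higher and 2046 (9.12%) lower than in Bonus. Most of these differences were graded, meaning that the gene was expressed at 1 CPM or more in both cultivars. The graded class held 2620 genes, 66.5% of the genes called and 11.7% of those tested, with 1193 higher and 1427 lower in Sebastian. A further 389 genes (9.88% of those called) were close to presence or absence, with at least 1 CPM in one cultivar and under 0.1 CPM in the other: 192 were on in Sebastian and 197 were on in Bonus. The remaining 930 genes lay between these classes, 540 of them under 1 CPM in both cultivars and 390 at 1 CPM or more in one and from 0.1 to 1 CPM in the other. In 2568 of the 2620 graded genes (98.0%) the 3 Sebastian and 3 Bonus libraries did not overlap, beside 33.4% of all tested genes. The same libraries chose the graded genes, so this share is a description only. With the 6 wild-type libraries fitted alone, 1686 genes were higher and 1685 lower in Sebastian. Of the 2620 graded genes, 2103 were graded in that fit too.

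**Figure D1:**
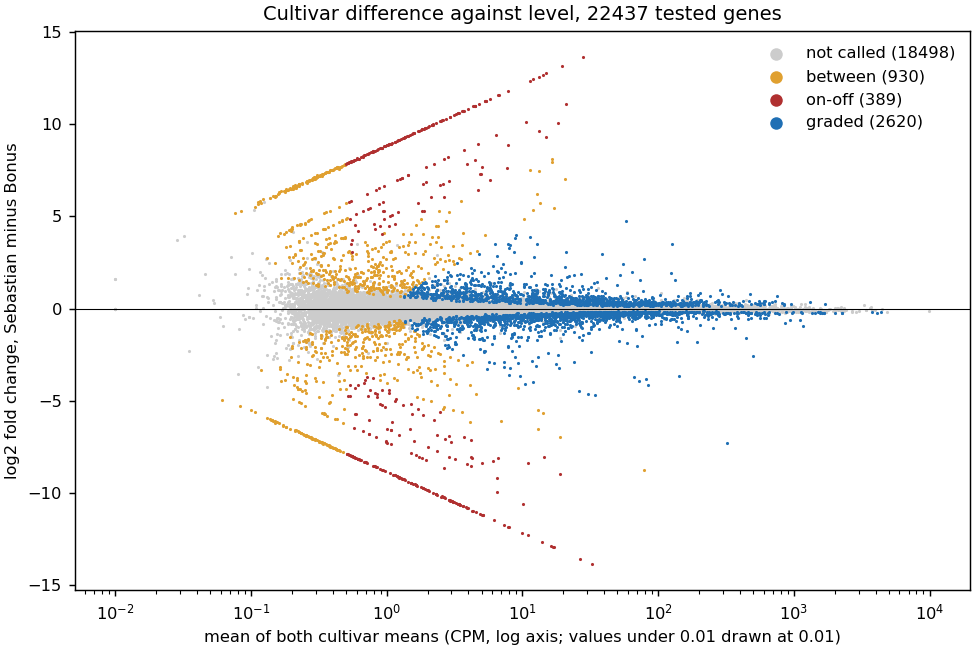
Log2 fold change of Sebastian minus Bonus (y axis) against the mean of both cultivar means in CPM (x axis, log scale), 1 point per tested gene, coloured by class. The 2620 graded genes spread on both sides of 0 at levels over 1 CPM, while the 389 on-off genes form the outer arms at low and middle levels, where the fitted fold is set by the level of the cultivar that has counts.

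Graded differences were mostly small. Their median absolute log2 fold change was 0.43, beside 0.17 over all tested genes, and the graded genes were chosen by this same contrast, so the first value is a description only. Of the 2620 genes, 1721 (65.7%) differed by less than 1.5-fold, 540 by 1.5- to 2-fold, 287 by 2- to 4-fold, 41 by 4- to 8-fold and 31 (1.18%) by 8-fold or more. Directions were close to even at 2-fold or more, with 181 genes higher and 178 lower in Sebastian. Under 1.5-fold, 737 were higher and 984 lower, and at 8-fold or more 12 were higher and 19 lower. Which direction held more graded genes was not stable: without the low-count filter 1578 were higher and 1384 lower, and without Bonus replicate 2 the counts were 1026 and 1007. Without Sebastian replicate 2, 752 graded genes were higher and 1027 lower. A stricter question, which genes differed by more than 1.5-fold (edgeR's glmTreat, adjusted p under 0.05), gave 1379 genes of all classes, or 6.15% of those tested, 711 higher (3.17%) and 668 lower (2.98%). Of these, 367 were graded, 624 lay between the classes and 388 were on-off.

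**Figure D2:**
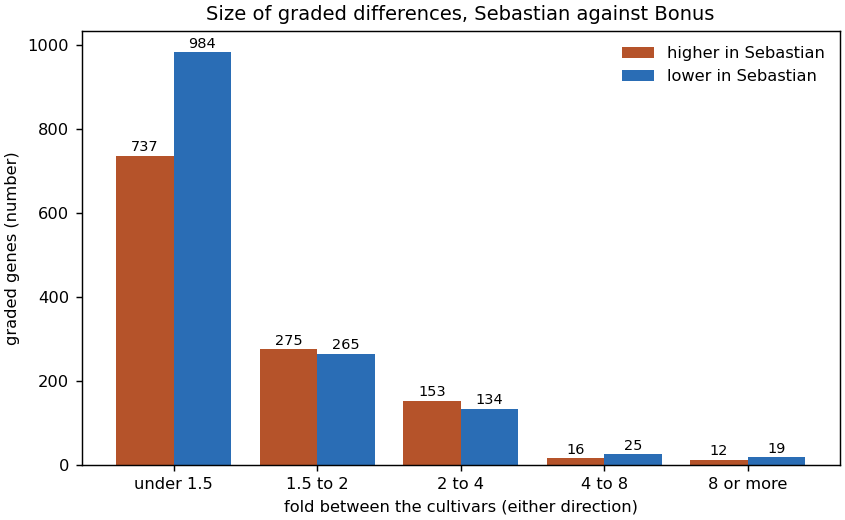
Number of graded genes (y axis, linear from 0) by the size of the fold between the cultivars (x axis), with genes higher in Sebastian left of genes lower in Sebastian in each pair of bars. The bars fall steeply, with 737 and 984 genes under 1.5-fold and 12 and 19 at 8-fold or more.

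The share of genes called was similar at all expression levels, while the folds of the genes called were larger at low levels, where a gene also needs a larger fold to be called. Levels are means over the 6 libraries. Under 1 CPM, 815 of 4224 genes were called (19.3%), at 1 to 10 CPM 1298 of 7504 (17.3%), at 10 to 100 CPM 1446 of 8609 (16.8%) and over 100 CPM 380 of 2100 (18.1%). These shares, and the folds of called genes given next, rest on unequal precision: the median standard error of the log2 fold change was 0.42 under 1 CPM, 0.18 at 1 to 10 CPM, 0.077 at 10 to 100 CPM and 0.060 over 100 CPM. Without Sebastian replicate 1 or 2 the genes called over 100 CPM numbered 248 and 240 in place of 380. The median absolute log2 fold change of graded genes was 0.73 at 1 to 10 CPM, 0.35 at 10 to 100 CPM and 0.26 over 100 CPM. Differences of 2-fold or more made up 28%, 7.88% and 3.95% of the graded genes at these levels, although the requirement of 1 CPM in both cultivars caps the fold that a weak graded gene can show. Past the 1.5-fold test were 13.7% of tested genes under 1 CPM, 8.02% at 1 to 10 CPM, 2.07% at 10 to 100 CPM and 1.0% over 100 CPM. The 95% confidence interval of the fold lay wholly within 1.5-fold in either direction for 13237 tested genes (59.0%), and this share was 0.781%, 46.5%, 89.6% and 95.1% from the lowest to the highest level. Among genes over 100 CPM, 4 graded genes were higher in Sebastian by 2-fold or more and 11 were lower, and 3 differed by 8-fold or more.

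The genes that differed took a similar part of the CPM of tested genes in both cultivars. Graded genes held 17.9% to 18.0% of the CPM of tested genes in the 3 Sebastian libraries and 18.6% to 18.7% in the 3 Bonus libraries, and on-off genes held 0.105% to 0.109% in Sebastian and 0.098% to 0.115% in Bonus. The graded genes higher in Sebastian made up 7.66% to 7.91% of the CPM in Sebastian and 5.73% to 6.05% in Bonus, and those lower in Sebastian made up at most 10.3% in the Sebastian libraries and 12.6% to 12.9% in Bonus. The direction of this split follows from how the genes were chosen.

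The graded genes with the largest folds and no overlap between libraries show how far a gene of at least 1 CPM in both cultivars can differ. HORVU.MOREX.r3.3HG0300470, at rank 2485 of the 3434 tested genes of chromosome 3H, had 108.5, 115 and 114 CPM in the Sebastian libraries and 4.0, 4.40 and 4.23 CPM in the Bonus libraries. The replicates of each cultivar lay close together and the cultivars far apart. Its log2 fold change was 4.74 (SE 0.062, edgeR adjusted p = 1.61e-14), the largest among graded genes higher in Sebastian, and its means were 112.6 ± 3.61 CPM in Sebastian and 4.21 ± 0.20 CPM in Bonus (SD, n = 3 each). HORVU.MOREX.r3.7HG0747300, at rank 3141 of 3284 on 7H, had 17.5, 16.2 and 16.7 CPM in Sebastian and 0.809, 1.06 and 1.25 CPM in Bonus. All 3 Sebastian libraries again stood above all Bonus libraries, and the Bonus mean of 1.04 CPM was just over the 1 CPM that the graded class requires. The log2 fold change was 4.0 (SE 0.15, edgeR adjusted p = 3.65e-10).

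In the other direction the largest graded difference was that of HORVU.MOREX.r3.6HG0595020, at rank 1475 of 2746 on 6H, with 5.12, 3.94 and 3.59 CPM in Sebastian and 630.1, 701 and 592 CPM in Bonus. A gene among the abundant transcripts of Bonus was thus counted at a low level in every Sebastian library. On 6H, ranks 1401 to 1500 hold 11 on-off genes and 9 graded genes. Whether these Sebastian counts are expression of the gene itself was not tested. HORVU.MOREX.r3.6HG0595020 lies in a run of 16 consecutive called genes from rank 1464, 5 of them graded. Its log2 fold change was −7.29 (SE 0.15, edgeR adjusted p = 7.77e-13), with 451 counts over the 3 Sebastian libraries and 44312 over the 3 Bonus libraries. HORVU.MOREX.r3.1HG0000470, at rank 20 of 2828 on 1H, had 1.68, 2.83 and 2.92 CPM in Sebastian and 58.3, 68.8 and 70.3 CPM in Bonus. The cultivars did not overlap, and the Sebastian values came from 299 counts in all. The log2 fold change was −4.67 (SE 0.19, edgeR adjusted p = 6.23e-10).

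Among graded genes with a mean over 100 CPM, leaving out HORVU.MOREX.r3.6HG0595020 as already named, the 2 higher and 2 lower genes with the largest folds lay near one end of chromosome 1H. Of all 15 graded genes of 2-fold or more at this level, 10 lay in the first or last of 10 equal segments of their chromosome and 5 in between. All graded genes at this level numbered 109 and 271 in these parts, and all tested genes 393 and 1706. The 2 higher and 2 lower genes are among the 10 and lie near each other, so the 10 are not separate observations. HORVU.MOREX.r3.1HG0008240, at rank 198, had 241, 248 and 208 CPM in Sebastian and 14.5, 27.6 and 18.6 CPM in Bonus. The Bonus libraries differed among themselves, with replicate 2 the highest, and all lay far below Sebastian. The log2 fold change was 3.50 (SE 0.17, edgeR adjusted p = 3.28e-09). HORVU.MOREX.r3.1HG0008120, at rank 193, had 205, 196 and 191 CPM in Sebastian and 48.6, 51.2 and 55.0 CPM in Bonus, with tight replicates in both cultivars. Its log2 fold change was 1.93 (SE 0.070, edgeR adjusted p = 2.15e-10).

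Lower in Sebastian at this level was HORVU.MOREX.r3.1HG0000480, with 18.9, 17.3 and 25.3 CPM in Sebastian and 245, 315 and 237 CPM in Bonus. It stands at rank 21 on 1H, next to HORVU.MOREX.r3.1HG0000470, and both were lower in Sebastian. Its log2 fold change was −3.68 (SE 0.22, edgeR adjusted p = 3.36e-08). HORVU.MOREX.r3.1HG0004290, at rank 112 on 1H, had 130, 145 and 155 CPM in Sebastian and 899.5, 1012 and 675 CPM in Bonus. Bonus replicate 3 was the lowest of its cultivar and still over 4 times the highest Sebastian value. The log2 fold change was −2.59 (SE 0.24, edgeR adjusted p = 2.68e-06). A read that maps to several places is counted for no gene in this kind of count file, so neighbouring copies with near-identical sequence could lose reads in one cultivar and not in the other, and whether this applies to these IDs was not tested.

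**Figure D3:**
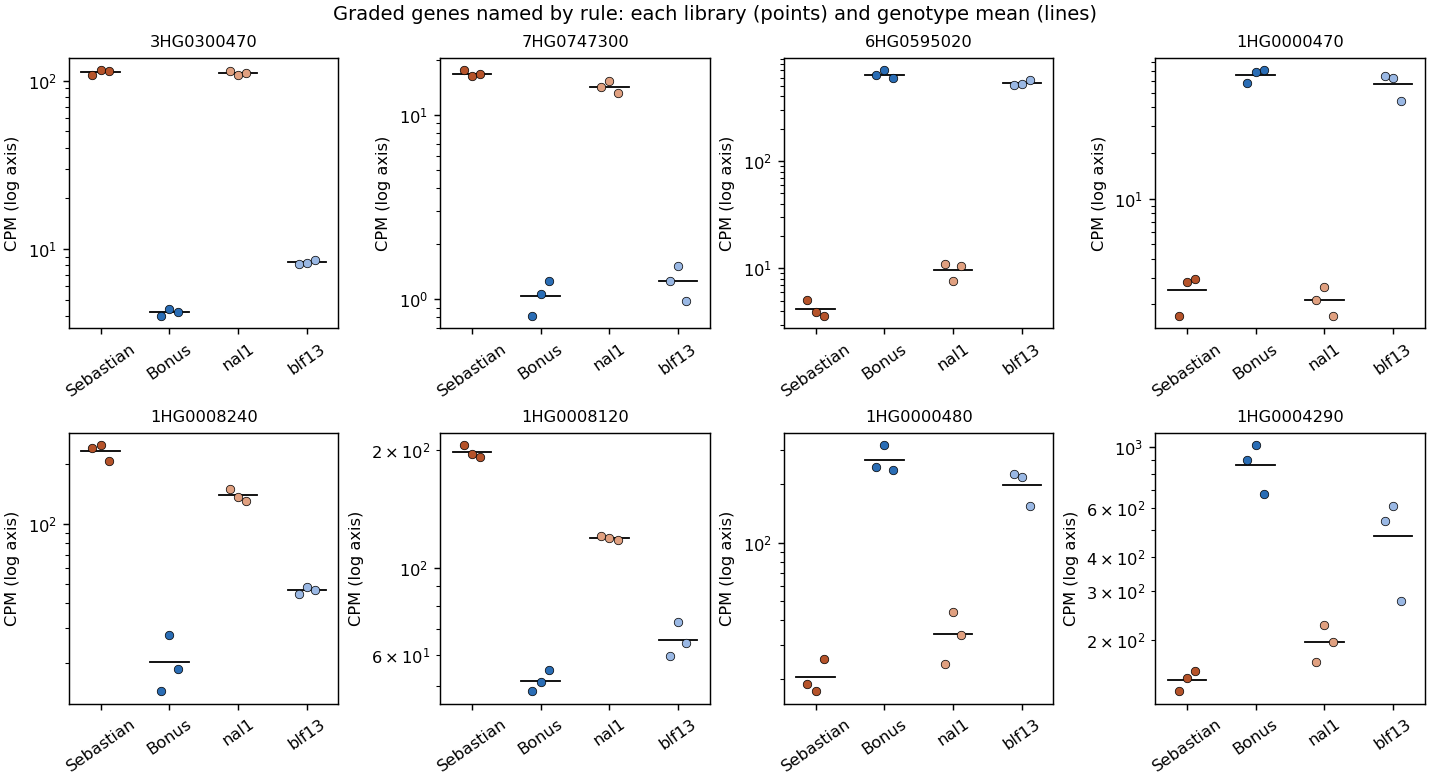
CPM (log axis in each panel) of the 8 graded genes named by rule, with 1 point per library and a line at the genotype mean, for Sebastian, Bonus, nal1 (Sebastian background) and blf13 (Bonus background). In each panel the 3 Sebastian points and the 3 Bonus points do not overlap, as the rule requires, and the nal1 and blf13 points lie on the same sides as their cultivars, in some panels closer together.

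Along the chromosomes, the differences were present on all 7 and were unevenly spread. The share of tested genes called was lowest on 7H, with 437 of 3284 (13.3%), and on 1H, with 424 of 2828 (15.0%). It was 17.5% on 3H, 17.6% on 4H, 18.9% on 6H, 19.2% on 2H and 20.9% on 5H, where 746 of 3570 genes differed, beside the 17.6% over all genes. The shares of graded genes were lowest and highest on the same chromosomes, from 9.41% of tested genes on 7H and 10.3% on 1H to 12.7% on 2H and 14.0% on 5H. Within a chromosome 39.0% (1H) to 49.9% (2H) of the graded genes were higher in Sebastian. The median absolute log2 fold change of graded genes ranged from 0.39 on 1H and 4H to 0.48 on 2H. Larger differences varied more: 23 of the 320 graded genes on 4H were of 2-fold or more, against 86 of 475 on 2H. Past the 1.5-fold test were 4.05% of tested genes on 7H, 7.03% on 5H, 7.21% on 6H and 7.45% on 2H. Of the 47 tested genes with no chromosome, 3 were called and none was graded.

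Shares varied more within chromosomes than between them, and were largest near the ends. The tested genes of each chromosome were put by ID order into 10 segments with equal numbers of genes. In the end segments, 1 and 10, 1314 of 4478 genes were called, or 29.3%, against 2622 of 17912 (14.6%) in the segments in between. For graded genes these shares were 18.8% and 9.94%, for on-off genes 2.93% and 1.44%, and for genes past the 1.5-fold test 12.5% and 4.56%. Every one of the 7 chromosomes had a larger share called at its ends than in between: 29.6% and 11.4% on 1H, 36.7% and 14.8% on 2H, 27.2% and 15.1% on 3H, 23.1% and 16.2% on 4H, 29.4% and 18.8% on 5H, 28.1% and 16.6% on 6H, and 29.4% and 9.29% on 7H. These shares are given without a test, since neighbouring genes are not independent.

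The ends were not alike. On 1H segment 1 had 44.9% of its genes called and segment 10 had 14.2%, a value inside the range of its middle segments of 8.48% to 16%. On 3H segment 1 (32.3%) stood above segment 10 (22.2%), and segment 4 reached 27.1%. On 4H segment 1, at 20.4%, was below segment 6, at 23.9%, and on 6H segment 1, at 22.9%, was below segment 2, at 27.6%. On 5H segments 1 (28.9%) and 2 (28.6%) were close. On 2H and 7H both end segments stood above every segment in between, with 38.0% and 35.4% on 2H and 27.1% and 31.7% on 7H. The middle of 7H had few differences, and its segments 3 to 6 had 5.78%, 6.71%, 7.62% and 5.47% of their genes called.

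**Figure D4:**
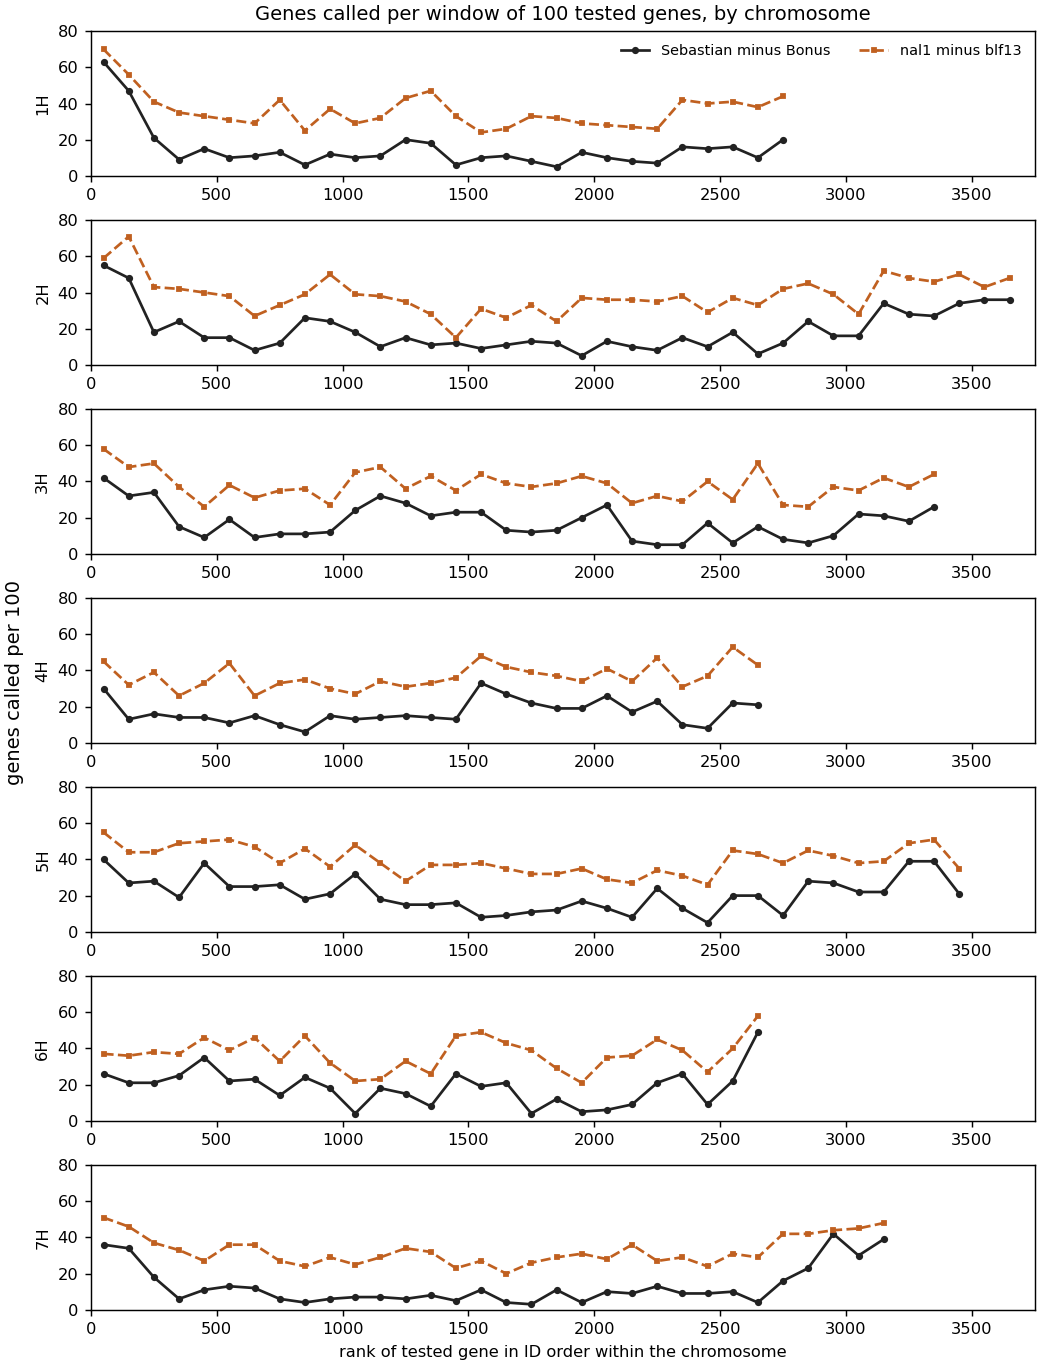
Genes called per window of 100 consecutive tested genes (y axis) by rank in ID order (x axis), for chromosomes 1H to 7H from top to bottom, in Sebastian minus Bonus (black, solid) and in nal1 minus blf13 (orange, dashed), which share no library. The black line is highest in the first window of 1H, at 63 genes, and stays at 13 or fewer along the middle of 7H. The last, incomplete window of each chromosome is not drawn.

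At finer scale, in 220 windows of 100 consecutive tested genes, the number called ranged from 3 to 63, with a median of 15 and quartiles of 10 and 23. The first window of 1H had 63 genes called, 39 of them graded (12 higher and 27 lower in Sebastian) and 10 on-off. The first window of 2H followed with 55 called, and the last complete window of 6H with 49. Of the 26 windows with 30 or more genes called, 19 had their middle in an end segment, where 41 of the 220 windows lie. Of the 14 windows with 5 or fewer called, 0 lay there, and 6 were on 7H. These bounds of 30 and 5 were chosen after the windows were seen.

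The excess at the ends was present at every expression level. Under 1 CPM 31.2% of the genes in end segments and 16% of those in between were called, at 1 to 10 CPM 30.5% and 14.0%, at 10 to 100 CPM 27.6% and 14.2%, and over 100 CPM 27.7% and 15.9%. The overall medians of level were similar, at 7.62 CPM in the end segments and 8.95 CPM in between. Graded genes at the ends also had larger folds: the median of their absolute log2 fold change was 0.51, against 0.40 in between. Folds of 2 or more made up 180 of the 840 graded genes in end segments (21.4%) and 179 of the 1780 in between (10.1%). Over 100 CPM the same shares were 9.17% of 109 genes and 1.85% of 271 genes.

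**Figure D5:**
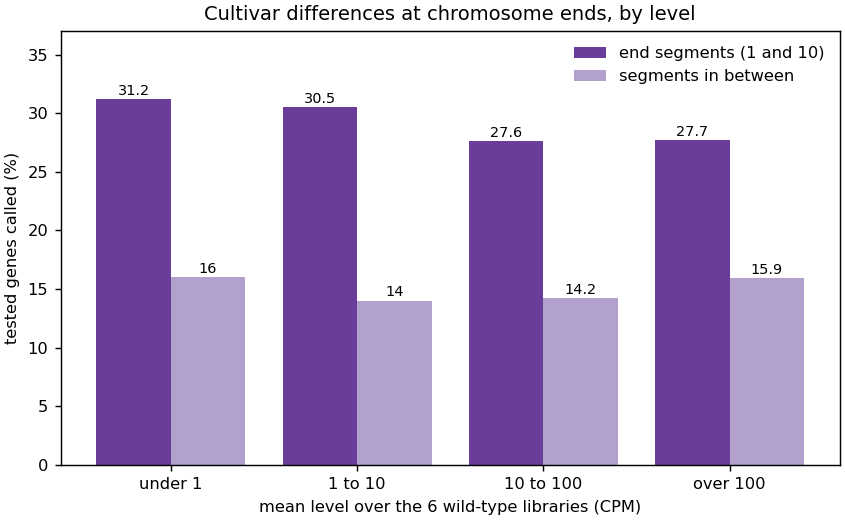
Percent of tested genes called between Sebastian and Bonus (y axis, from 0) by mean level over the 6 libraries (x axis), with the end segments 1 and 10 of each chromosome (dark) left of the segments in between (light). The dark bars lie between 27.6% and 31.2% and the light bars between 14.0% and 16%.

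Called genes also lay next to each other more often than tested genes in general. The next tested gene along the chromosome was called for 1268 of 3934 called genes (32.2%), against 17.6% of all next genes. Within the end segments the share was 45.5% against 29.3% of all next genes there. In the segments in between it was 25.6% against 14.6%. Of the 1268 pairs of called neighbours, 796 (62.8%) went the same way, 368 with both higher and 428 with both lower in Sebastian, where 52.2% of all neighbouring tested pairs had the same sign. Pairs of graded neighbours numbered 494, of which 288 (58.3%) went the same way. Reads that overlap 2 annotated genes fall in the ambiguous line, which was left out and held 0.42% to 0.46% of reads in the 6 libraries. Counting without strand also gives a gene the antisense reads within its span, and the part this takes in the shared directions was not tested.

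The same backgrounds could be compared in other plants, since the 3 nal1 libraries are of Sebastian background and the 3 blf13 libraries of Bonus background. This contrast also holds both mutant alleles and any other change in the mutant lines, and it shares no library with the wild-type comparison, although all 12 libraries share 1 estimate of the spread. In nal1 minus blf13, 8360 genes were called (37.3%), 4589 higher (20.5%) and 3771 lower (16.8%). Of the 2620 graded genes, 2408 (91.9%) had the same sign there, and 1866 (71.2%) were called in the same direction, against 41 called in the opposite one. Over all tested genes 71.4% had the same sign and 32.3% were called in that direction, and among genes not called between the wild types these shares were 66.8% and 22.9%. Of all 3939 genes called between the wild types, 3002 (76.2%) were called in the same direction in nal1 minus blf13, which is 35.9% of the 8360. On-off genes kept their side in 386 of 389 cases.

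The size of graded differences was similar in both contrasts. In the direction of the wild-type difference, the median log2 fold change of graded genes in nal1 minus blf13 was 0.38, beside the 0.43 by which they were chosen. It was 0.49 beside 0.47 for genes higher in Sebastian, and 0.34 beside 0.40 for genes lower in Sebastian. For the 359 graded genes of 2-fold or more it was 1.40, the same as in the wild types, and 323 of them were called in the same direction, beside 32.3% of all tested genes. For the 1721 graded genes under 1.5-fold it was 0.28, beside 0.32 in the wild types, and 1132 (65.8%) were called in the same direction. Across all 22437 genes the log2 fold changes of both contrasts had a Pearson r of 0.889 and a Spearman rho of 0.586, a description across genes, which are not independent and share the reference and its annotation. For 234 of the 2620 graded genes (8.93%) the difference between the contrasts itself passed the edgeR test at an adjusted p under 0.05, beside 5.22% of all tested genes. The share was 12.2% for graded genes higher in Sebastian, 6.24% for those lower and 13.9% for those of 2-fold or more. This test uses the Sebastian and Bonus libraries that chose the graded genes, so its shares are not independent of that choice.

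The uneven spread along chromosomes was seen there too. In nal1 minus blf13, 45.8% of the genes in end segments and 35.1% of those in between were called. The numbers of genes called per window in both contrasts had a Pearson r of 0.822 and a Spearman rho of 0.787 over the 220 windows. The 26 windows with 30 or more genes called between the wild types had a median of 49.5 called in nal1 minus blf13, and the 14 windows with 5 or fewer a median of 27.5, beside 37 over all windows. The contrasts of each mutant with its own wild type, which share libraries with the cultivar comparison, had 4.06% called at the ends and 2.98% in between for blf13 minus Bonus (3.19% over all genes), and 11.2% and 11.6% for nal1 minus Sebastian (11.5% over all genes). The labels name no growth or handling batch, and any that followed the cultivars cannot be told apart from them. How far sequence differences of each cultivar from Morex moved its counts was not tested.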

How the data were processed

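The deposited files hold raw read counts per gene ID for each library, in the layout of STAR's gene counts, as the files' own lines show. Per the submitters' processing notes, STAR 2.7.3a was used; the build of the genome, any trimming and the filters were not given in the sources used here. Per the labels' protocols, TRIzol extraction and a NEBNext Ultra RNA library kit were used. Unstranded counts (the first value column) were analysed. The summary lines (unmapped, multimapping, outside genes, ambiguous), 15.7% to 37.9% of the reads of a library, were left out of library sizes and tests. The highest share was that of blf13 replicate 2, and no other library was over 23.3%. Without blf13 replicate 2, 3780 genes were higher and 2842 lower in nal1 minus blf13.

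The test was that of edgeR 4.0.16 under R 4.3.3 (TMM, filterByExpr, quasi-likelihood F test, Benjamini-Hochberg adjustment over 22437 genes), with 1 coefficient per genotype in all 12 libraries. Position was the rank of the ID within its chromosome. Standard errors were derived from the F statistic. The test was checked on simulated counts. Libraries of one cultivar differed by 3.76 to 11.0 times sampling noise (chi-square per degree of freedom), so none was a duplicate. The labels call the replicates biological. The members, classes and lists were chosen with earlier results of these data known. Genes were named by rule: the 2 higher and 2 lower graded genes with the largest fold and no overlap between libraries, at all levels and again over 100 CPM. A gene already named was passed over for the next. Alternatives were another normalization (DESeq2 size factors, cyclic loess), DESeq2 1.42.0, no filter, 6 libraries alone, a replicate block, thinned counts, each replicate left out and other thresholds.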

Additional observations from a re-analysis of the deposited data

Results flagged for a closer look

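For 6 of the 8 named genes, the cultivar difference in nal1 minus blf13 differed from that in Sebastian minus Bonus by the edgeR test of the difference itself. The share passing this test was 5.22% of all tested genes and 13.9% of graded genes of 2-fold or more. In all 6 the difference was smaller in nal1 minus blf13. The values are log2, as nal1 minus blf13 less Sebastian minus Bonus. The genes were chosen for their large difference between the wild types, in libraries that this test uses too, so the count is a description only. HORVU.MOREX.r3.3HG0300470 had −1.0 (adjusted p = 2e-05 by edgeR), as its mean was 110.9 CPM in nal1 and 8.34 CPM in blf13, with 112.6 CPM in Sebastian and 4.21 CPM in Bonus. HORVU.MOREX.r3.6HG0595020 had 1.48 (adjusted p = 0.000766), with 9.73 CPM in nal1 and 533.5 CPM in blf13. Like the rest of the 6, the pair near the start of 1H that was higher in Sebastian had smaller differences in the mutant libraries. HORVU.MOREX.r3.1HG0008240 had −1.92 (adjusted p = 0.000303), with 139 CPM in nal1 and 46.5 CPM in blf13, and HORVU.MOREX.r3.1HG0008120 had −1.07 (adjusted p = 4.2e-05), with 119 and 65.7 CPM in nal1 and blf13. HORVU.MOREX.r3.1HG0000480 had 1.15 (adjusted p = 0.0378) and HORVU.MOREX.r3.1HG0004290 had 1.32 (adjusted p = 0.0337), and in both the direction between the backgrounds was the same as in the wild types.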

How the results depend on the processing

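Over 23 alternative settings, 213 of 223 recomputed counts and percentages stayed within 1.5 times the value reported or within its counting interval, and all 104 recomputed fold changes of the 8 named genes kept their direction and passed the test, the largest adjusted p being 5.15e-05. With an adjusted p under 0.01, 1181 genes were higher and 1250 lower in Sebastian, 638 and 771 of them among graded genes, of which 1339 had the same sign in nal1 minus blf13. With graded genes taken from 2 CPM, 117 were higher by 2-fold or more. In windows of 50 genes the lowest share called was 0%. Leaving out each Sebastian or Bonus replicate gave 752 to 1214 graded genes higher and 980 to 1665 lower, and 240 to 477 genes called over 100 CPM. Equal replicate numbers did not pair the libraries: deviations from the cultivar means correlated with r of −0.047, 0.074 and 0.0027, and with a replicate block 1920 genes were higher and 1995 lower. Counts thinned to the smallest library gave 1552 and 1573, so fewer genes were called at lower depth.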

Other observations

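The longest run of consecutive tested genes that all differed between the cultivars lay on 6H and held 16 genes from rank 1464, of which 2 were higher and 14 lower in Sebastian and 5 were graded. It includes HORVU.MOREX.r3.6HG0595020. Runs of 12 genes began at rank 11 on 1H, with 3 higher and 9 lower, and at rank 87 on 2H, with 8 higher and 4 lower. The run on 1H includes HORVU.MOREX.r3.1HG0000470 and HORVU.MOREX.r3.1HG0000480. These runs were singled out after their values were seen.

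Before any filter, 4664 gene IDs had counts in Sebastian and none in the 3 Bonus libraries, and 2433 had counts in Bonus and none in the 3 Sebastian libraries. Sebastian replicate 3 was the deepest library, with 62995658 counts and 32097 IDs detected, and the part of depth in this difference was not tested.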
